A study of Bos grunniens with 9 samples.

Results

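The interferon-stimulated genes are the genes that cells turn on when an interferon reaches its receptor. A list of 38 symbols of such genes was looked up in ribosome footprint tables of the yak ovary, and 36 of them matched, out of 21652 genes in the tables. RIGI, which the tables carry under its older symbol DDX58, and SAMD9 did not match, and DDX58 itself is among the 36. Where a symbol had several identifiers, which was so for OAS1 and IFI6, the identifier with the highest mean count was taken. All 36 passed the filter on low counts and were tested.

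Interferons are secreted proteins. Type I interferons bind the IFNAR1 and IFNAR2 receptor chains, and the kinases JAK1 and TYK2 then set off the assembly of a complex with STAT2 and IRF9 that binds interferon-response elements in promoters. The induced proteins sense viral RNA, block its translation, tag proteins with the ubiquitin-like modifier ISG15 and amplify the response. In cattle and sheep, the embryo's trophoblast secretes interferon tau in early pregnancy, and interferon-stimulated genes are known to respond to it in the uterus and, in these species, also in the corpus luteum of the ovary.

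Ribosome profiling reads short mRNA fragments protected by translating ribosomes, so a footprint count reflects both how much mRNA a gene has and how heavily it is translated. The study took ovaries of 6-year-old yaks (Bos grunniens) in anestrus (April), in estrus (August) and in pregnancy (December), with 3 libraries per stage and no other treatment in the labels. Stage and month of sampling cannot be told apart, and the day of pregnancy is not given in the sources used here. Whole ovary was used, so fewer cells of a type and less RNA per cell cannot be told apart.

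Depth differed by stage. The 3 anestrus libraries, with 15.42 M, 28.94 M and 12 M counts (M, 1e6), were all deeper than the 6 others, which held 1.47 M to 11.07 M. Anestrus replicate 2 was the deepest and pregnancy replicate 3 the shallowest, and both were also left out together. The 36 genes took 0.0872 to 0.127% of a library's counts. Levels below are CPM (counts per 1e6 counts, TMM-normalised) with the SD of 3 libraries. The 3 counts taken as a floor amount to 0.104 CPM at the highest depth and to 2.04 CPM at the lowest, before TMM scaling. On the TMM scale, 3 counts in the shallowest library are 1.79 CPM. Only 3 of the 36 genes, BST2, IFI44L and OAS2, had 3 counts or fewer in any library. Fold changes are log2 values of the first stage named over the second, with their standard error, from edgeR's quasi-likelihood test on all 9 libraries, and a call is a Benjamini-Hochberg adjusted p under 0.05 over all 13936 genes tested.

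The tissue label was checked on marker genes. Summed over 8 granulosa cell markers, the level was 433 to 4100 CPM in the 9 libraries, and over 8 theca and luteal markers it was 469 to 5800 CPM. Oocyte markers summed to 1.18 to 19.1 CPM and erythroid markers to 2.76 to 20.3 CPM. Among the immune cell markers, the 10 macrophage genes summed to 502 to 1330 CPM, whereas the 10 T and NK cell genes summed to 51.0 to 148 CPM.

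Interferon-stimulated genes were footprinted in every stage, at levels that spanned a wide range. Compared per length, in the authors' FPKM, LGALS3BP had the highest mean level of the 36 at 168 FPKM, followed by IFI6 at 133, IFIT5 at 88.8, CXCL10 at 76.6 and IRF1 at 45.7. LGALS3BP is a secreted glycoprotein that binds galectins, and CXCL10 is a chemokine that draws activated T cells. At the other end stood OAS2 with a mean of 0.571 FPKM, IFI44L with 1.17, and MX2 with 1.65. The genes that are often read as sentinels of an interferon response lay between, with 27.8 FPKM for OAS1, 27.5 for ISG15 and 22 for MX1.

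**Figure D1:**
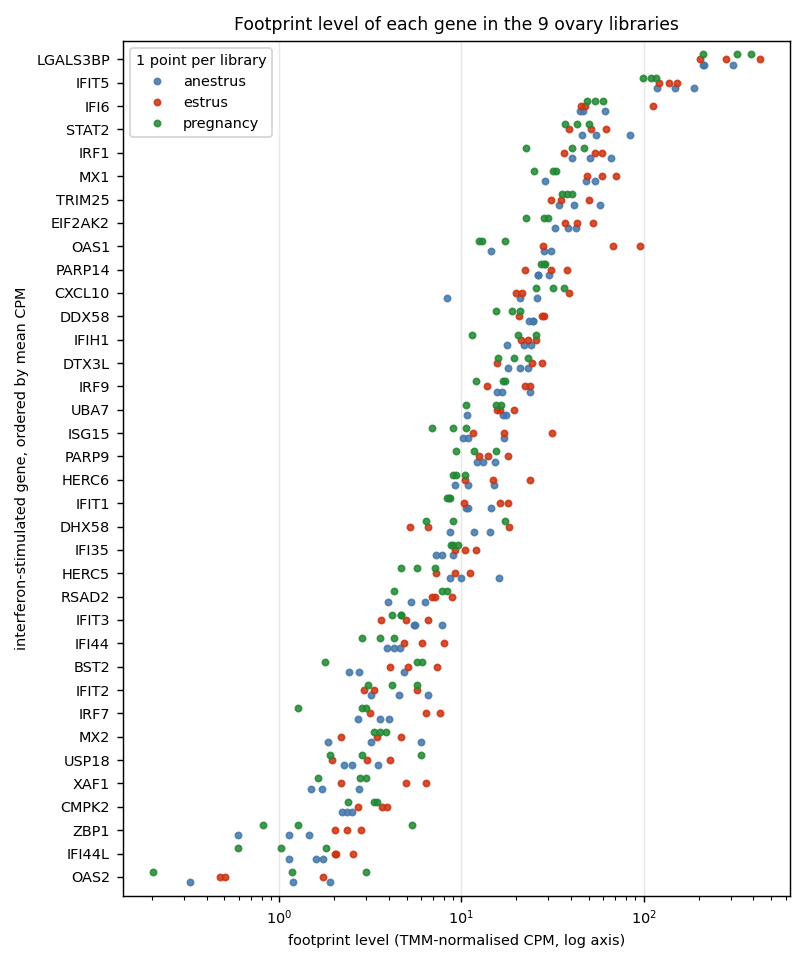
Footprint level of each of the 36 genes on a log axis of TMM-normalised CPM, 1 point per library, coloured by stage. LGALS3BP lies above 200 CPM in all 9 libraries and OAS2 below 3 CPM, and in the OAS1 row the estrus points at 67.6 and 95.4 CPM stand to the right of all others.

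In 22 of the 36 genes the stage mean was highest in estrus, in 9 in anestrus and in 5 in pregnancy. The lowest stage mean was that of pregnancy in 21 genes, anestrus in 11 and estrus in 4. The same order was not counted over all tested genes, so these counts alone do not set the 36 apart. For a view of single libraries, each gene's log2 CPM was centred on its mean over the 9 libraries and the 36 deviations were averaged. This average was -0.06, 0.06 and -0.12 in anestrus replicates 1 to 3. It was 0.01, 0.35 and 0.29 in estrus, and -0.12, -0.30 and -0.10 in pregnancy. The high estrus values lay in replicates 2 and 3, where 29 and 28 of 36 genes were above their own mean, while estrus replicate 1 had 18 of 36 and sat inside the anestrus range. Pregnancy replicate 2 was at the other extreme with 5 of 36 above the mean.

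**Figure D2:**
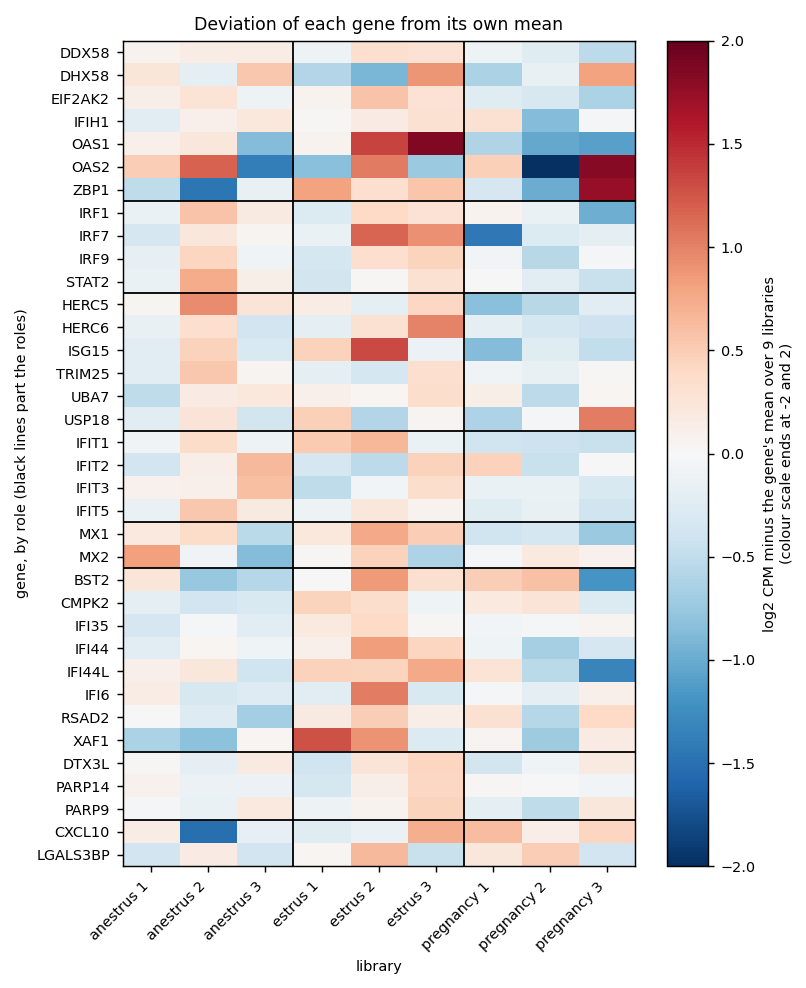
Log2 CPM of each of the 36 genes (rows, grouped by role) minus its mean over the 9 libraries (columns, 3 per stage). Red cells are above and blue cells below the gene's mean; estrus replicates 2 and 3 hold 29 and 28 genes above their mean and pregnancy replicate 2 holds 5.

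Between estrus and anestrus, most of the genes leaned towards estrus, and none passed the adjusted test. Of 36 genes, 26 had a positive and 10 a negative log2 fold change, with a median of 0.20 against -0.01 over all genes tested. edgeR called 0 of them, as it called 0.0% of all genes, and DESeq2 also called 0. At an unadjusted p under 0.05, OAS1 and XAF1 were higher in estrus (2 of 36, against 2.91% of all genes) and 0 were lower (4.13% of all genes). That count was 1 when anestrus replicate 1 or estrus replicate 2 was left out. In 6 genes, CMPK2, IFI35, IFI44, IFI44L, RSAD2 and ZBP1, every estrus library lay above every anestrus library (5.22% of all genes). In 0 genes did every estrus library lie below (6.42% of all genes). Without anestrus replicate 2 the split was 31 positive to 5 negative and the median 0.30, without estrus replicate 3 it was 23 to 13 and 0.13.

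Between pregnancy and estrus, most of the genes leaned the other way. Of 36 genes, 29 had a negative and 7 a positive log2 fold change, with a median of -0.28 against 0.01 over all genes. edgeR called 0 (0.0% of all genes), with 0.522 as the smallest adjusted p. At an unadjusted p under 0.05, 8 genes were lower in pregnancy (3.19% of all genes) and 0 higher (4.23%). They were OAS1, MX1, EIF2AK2, ISG15, IFIT1, IRF7, IFI44 and HERC6. Without estrus replicate 2 there were 4 such genes, and without pregnancy replicate 1 there were 5. In 10 genes every pregnancy library lay below every estrus library (6.59% of all genes), and in 0 genes above (7.05%). Those 10 were OAS1, MX1, EIF2AK2, ISG15, IFIT1, IRF7 and IFI44 of the genes just named, with HERC5, IFI44L and IFIT5. DESeq2 called 1 member, OAS1, and 0.213% of the genes for which it gave an adjusted p. In the authors' deposited table the same gene was the only member with an FDR under 0.05, against 0.106% of all 21652 genes. That base is wider than the 13936 genes tested here and includes genes without a count.

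Between pregnancy and anestrus, 24 of the 36 genes had a negative and 12 a positive log2 fold change, with a median of -0.17 against 0.00 over all genes. edgeR called 0 (0.0% of all genes), with 0.718 as the smallest adjusted p, and DESeq2 called 0. At an unadjusted p under 0.05, HERC5, IFIT5 and EIF2AK2 were lower in pregnancy (3 of 36, 3.62% of all genes) and 0 were higher (3.2%). This count was 0 when anestrus replicate 2 or pregnancy replicate 1 was left out, and 1 when pregnancy replicate 2 or 3 was left out. In 6 genes, DDX58, EIF2AK2, HERC5, IFIT1, IFIT3 and IFIT5, every pregnancy library lay below every anestrus library (6.91% of all genes). In 0 genes did every pregnancy library lie above (5.88%). With log2 library size as a covariate the median was -0.03. The 3 comparisons share libraries, so these counts do not add to each other.

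Over the 3 stages at once, edgeR called 0 of 36 genes (0.0% of all genes), with 0.693 as the smallest adjusted p. At an unadjusted p under 0.05 there were 6, OAS1, MX1, EIF2AK2, ISG15, HERC5 and IFIT1, against 7.16% of all genes, and there were 3 when estrus replicate 2 or any 1 of the pregnancy libraries was left out. DESeq2's likelihood ratio test called 1 of the 36, against 0.419% of the genes for which it gave an adjusted p.

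**Figure D3:**
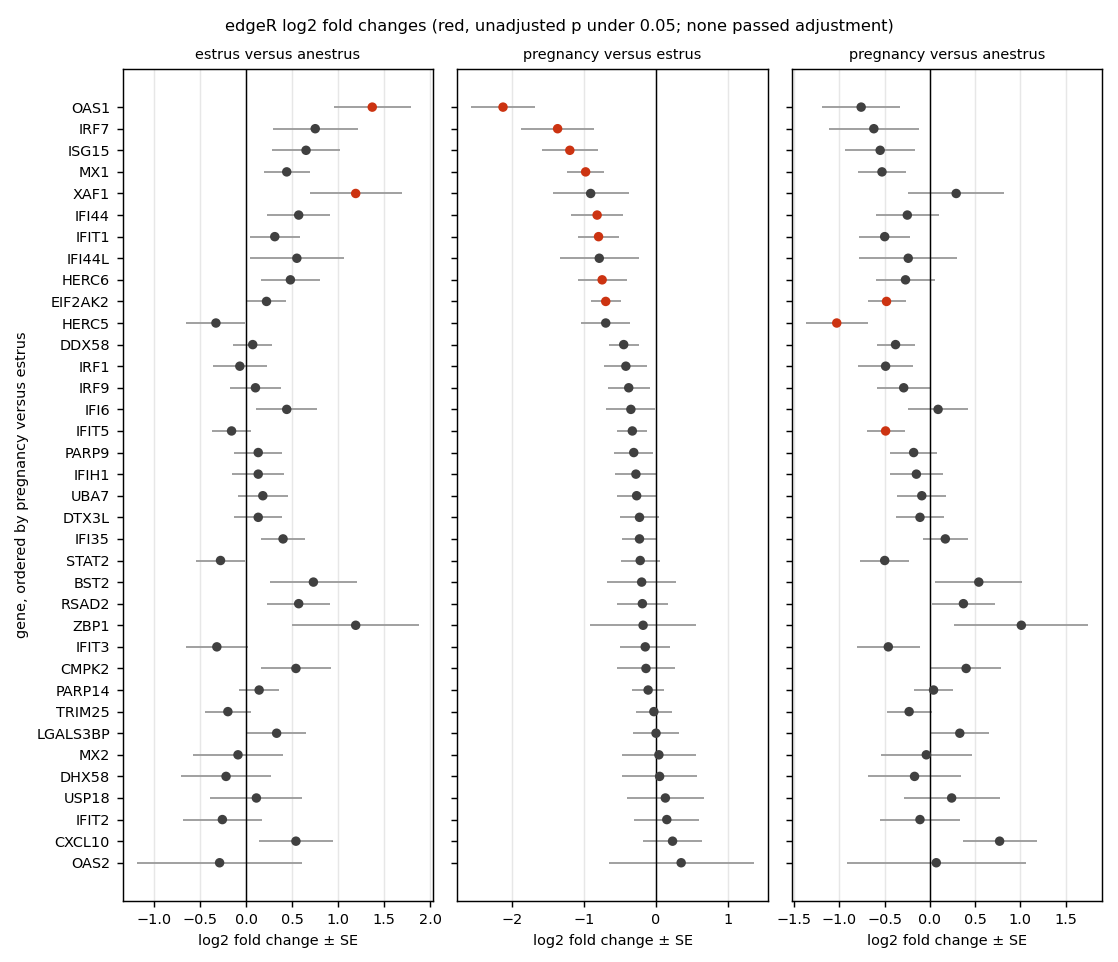
Log2 fold change with its standard error from edgeR for each of the 36 genes in the 3 stage comparisons, ordered by pregnancy versus estrus. Red points have an unadjusted p under 0.05 (2, 8 and 3 genes), and none passed the adjusted test.

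Among the RNA sensors was the gene with the largest log2 fold change of the 36 between estrus and either other stage, OAS1, an oligoadenylate synthetase that on binding double-stranded RNA makes the messenger that activates RNase L. OAS1 stood at 28.3, 30.9 and 14.5 CPM in anestrus. In estrus it was at 27.9, 67.6 and 95.4 CPM, and in pregnancy at 17.4, 13.0 and 12.5 CPM. Every estrus library was above every pregnancy library, and estrus replicate 1 lay within the anestrus range. The log2 fold change of pregnancy over estrus was -2.13 ± 0.44 (SE), an estimated 0.229 of the estrus level, with an unadjusted p of 0.000621 and an adjusted p of 0.522. DESeq2 gave -2.15 with an adjusted p of 0.00499, and the authors' deposited table gave -2.02 with an FDR of 0.00392. Estrus over anestrus was 1.37 ± 0.42 with an unadjusted p of 0.0078 and an adjusted p of 0.704. Leaving out 1 library at a time, pregnancy over estrus ran from -2.49 to -1.72.

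OAS1 is one of several closely related copies in cattle, and how footprints were shared among them is not known here. A second identifier with the symbol OAS1 stood at 1.46, 4.27 and 5.64 CPM in anestrus. The estrus libraries had 8.92, 6.19 and 25.0 CPM of it and the pregnancy libraries 3.29, 8.33 and 3.58 CPM. Its log2 fold change was 1.81 ± 0.63 for estrus over anestrus, with every estrus library above every anestrus library, and -1.36 ± 0.65 for pregnancy over estrus, where pregnancy replicate 2 overlapped the estrus range. The related identifier OAS1Z was highest in estrus replicate 3 at 7.42 CPM and lay at 0.0 to 3.58 CPM in the 8 other libraries. The OAS1 identifiers thus shared estrus replicate 3 as their highest library.

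EIF2AK2 encodes PKR, the kinase that halts translation on binding double-stranded RNA. It had 38.3, 42.5 and 32.8 CPM in the anestrus libraries, 36.9, 52.4 and 43.0 CPM in the estrus libraries and 29.8, 28.4 and 22.7 CPM in the pregnancy libraries. Pregnancy lay below both other stages in every library, with a log2 fold change of -0.70 ± 0.21 against estrus (unadjusted p 0.00755, adjusted p 0.656). Against anestrus it was -0.48 ± 0.21 (unadjusted p 0.0451, adjusted p 0.718). The RIG-I-like receptors detect viral RNA in the cytosol, and their log2 fold changes ran from -0.45 to 0.13. DDX58 (RIG-I) was at 24.3 ± 0.746 CPM (SD, n = 3) in anestrus, 25.5 ± 4.06 in estrus and 18.4 ± 2.73 in pregnancy, and IFIH1 (MDA5) at 21.3 ± 3.18, 23.2 ± 2.16 and 19.1 ± 7.22 CPM. DHX58 (LGP2), a helicase that modulates both, was spread widely within a stage, with 6.58, 5.23 and 18.2 CPM in estrus. ZBP1, a sensor of Z-form nucleic acid, was at 1.06 ± 0.433 CPM in anestrus, 2.40 ± 0.394 in estrus and 2.48 ± 2.51 in pregnancy. The wide spread in pregnancy came with replicate 3, at 5.37 CPM on 9 counts. OAS2 was near the floor. Over the 7 sensors the median log2 fold change was 0.13 for estrus over anestrus, -0.28 for pregnancy over estrus and -0.17 for pregnancy over anestrus.

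The 4 transcription factors had their lowest stage mean in pregnancy. IRF7, the factor that amplifies type I interferon production, had 2.71, 3.99 and 3.55 CPM in the anestrus libraries, 3.13, 7.65 and 6.41 CPM in the estrus libraries and 1.27, 2.84 and 2.98 CPM in the pregnancy libraries. Its log2 fold change of pregnancy over estrus was -1.37 ± 0.51 (unadjusted p 0.0214, adjusted p 0.656). The pregnancy values of IRF7 rest on 12, 14 and 5 counts. IRF1, which drives interferon-gamma targets, had 40.4, 66.0 and 50.6 CPM in the anestrus libraries, 36.6, 58.8 and 54.1 CPM in the estrus libraries and 46.8, 40.6 and 22.7 CPM in the pregnancy libraries. The stages overlapped, and pregnancy over estrus was -0.42 ± 0.30. STAT2 was at 61.6 ± 20.3, 50.7 ± 11.6 and 43.2 ± 6.46 CPM (SD, n = 3) in anestrus, estrus and pregnancy, and IRF9 at 18.7 ± 4.41, 20.0 ± 5.45 and 15.4 ± 2.98 CPM. All 4 had a negative log2 fold change of pregnancy over each other stage, with medians of -0.40 against estrus and -0.49 against anestrus, and none was called. The same signs held in each fit that left out 1 library. With log2 library size as a covariate, however, IRF1 was at 0.30 for pregnancy over anestrus.

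The ISG15 system conjugates a ubiquitin-like protein to others, with UBA7 as the activating enzyme, HERC5, HERC6 and TRIM25 as ligases and USP18 as the protease that removes it. ISG15 had 10.8, 17.2 and 10.2 CPM in the anestrus libraries, 17.2, 31.2 and 11.6 CPM in the estrus libraries and 6.90, 10.6 and 8.94 CPM in the pregnancy libraries. Every pregnancy library was below every estrus library, with a log2 fold change of -1.20 ± 0.39 (unadjusted p 0.0113, adjusted p 0.656). Without estrus replicate 2, its highest library, the value was -0.73. HERC6, which is known as the main ISG15 ligase in mice, had 10.8, 15.1 and 9.19 CPM in the anestrus libraries, 10.5, 14.8 and 23.8 CPM in the estrus libraries and 10.5, 9.35 and 8.94 CPM in the pregnancy libraries. Its pregnancy over estrus value was -0.75 ± 0.34 (unadjusted p 0.0472), and -0.39 without estrus replicate 3. HERC5, the main ligase in humans, had another order, with 8.61, 16 and 9.92 CPM in anestrus, 9.24, 7.26 and 11.1 CPM in estrus and 4.67, 5.69 and 7.15 CPM in pregnancy. Pregnancy over anestrus was -1.03 ± 0.34 (unadjusted p 0.0119, adjusted p 0.718), and -0.72 without anestrus replicate 2. TRIM25, UBA7 and USP18 had log2 fold changes between -0.27 and 0.24 in the 3 comparisons.

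The IFIT proteins bind viral RNA ends and block their translation. IFIT1 had 10.8, 14.6 and 10.6 CPM in the anestrus libraries, 16.3, 17.9 and 10.3 CPM in the estrus libraries and 8.6, 8.53 and 8.35 CPM in the pregnancy libraries. The 3 pregnancy libraries lay below all 6 others, on 81, 42 and 14 counts. With so few counts, their near-equal levels do not show a small spread. The log2 fold change of pregnancy over estrus was -0.80 ± 0.28 (unadjusted p 0.0162, adjusted p 0.656). IFIT5, the most footprinted of the 4, had 119, 190 and 148 CPM in the anestrus libraries, 121, 152 and 137 CPM in the estrus libraries and 110, 117 and 99.0 CPM in the pregnancy libraries. Pregnancy lay below both other stages here too, with -0.49 ± 0.21 against anestrus (unadjusted p 0.0437, adjusted p 0.718) and -0.33 ± 0.21 against estrus. IFIT2 and IFIT3 had their highest stage mean in anestrus, at 4.75 ± 1.69 and 6.28 ± 1.33 CPM (SD, n = 3). Over the 4 genes the median log2 fold change was -0.21 for estrus over anestrus, a negative value where the median of all 36 was positive.

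The 2 MX genes, which encode dynamin-like GTPases that trap viral particles, had unlike values. MX1 had 48.1, 53.9 and 28.9 CPM in the anestrus libraries, 48.7, 70.7 and 58.8 CPM in the estrus libraries and 31.9, 32.9 and 25.0 CPM in the pregnancy libraries. Estrus lay above pregnancy in every library, and pregnancy over estrus was -0.98 ± 0.26, an estimated 0.508 of the estrus level (unadjusted p 0.00369, adjusted p 0.656). Leaving out 1 library at a time, this value ran from -1.10 to -0.84. MX2 stood at 3.67 ± 2.09, 3.43 ± 1.23 and 3.58 ± 0.285 CPM (SD, n = 3) in anestrus, estrus and pregnancy, with log2 fold changes between -0.09 and 0.04. The difference between the MX1 and MX2 fold changes was not tested.

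**Figure D4:**
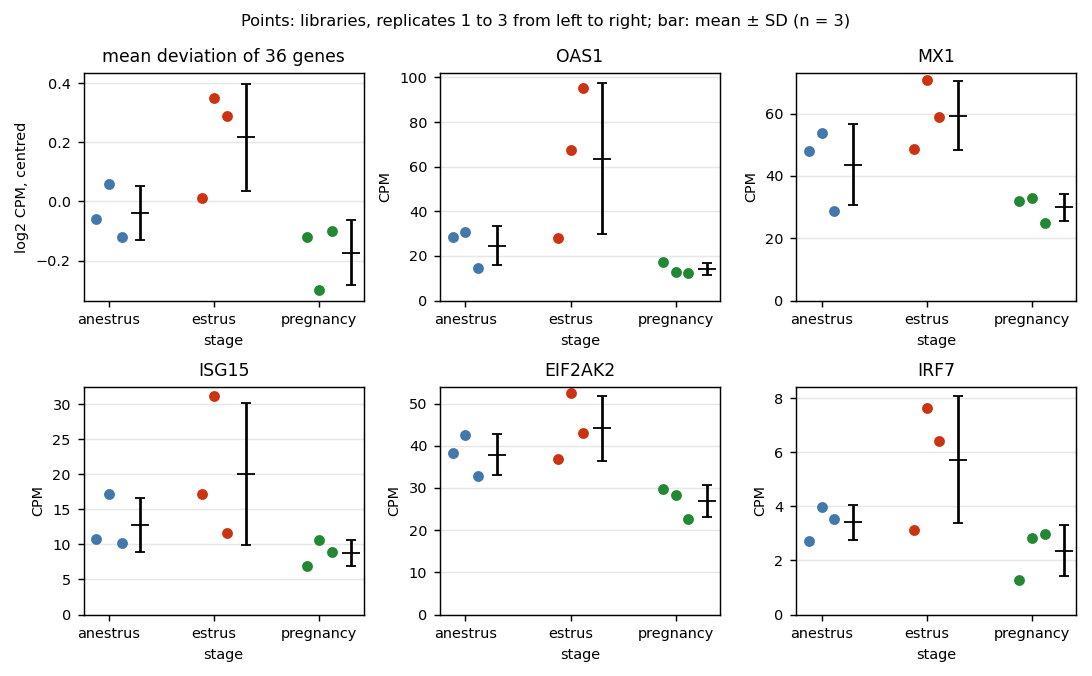
Average centred log2 CPM of the 36 genes and CPM of OAS1, MX1, ISG15, EIF2AK2 and IRF7 in each library, with the mean and SD of the 3 libraries per stage. For the 5 named genes every pregnancy library lies below every estrus library, and for the average estrus replicate 1, at 0.01, lies within the anestrus range.

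The 8 other effectors, with varied antiviral roles, leaned towards estrus over anestrus. All 8 had a positive log2 fold change, with a median of 0.56, and in 5 of them (CMPK2, IFI35, IFI44, IFI44L and RSAD2) the estrus libraries lay above all anestrus libraries, as in 5.22% of all genes. Leaving out 1 library at a time, 7 or 8 of them were positive. RSAD2, or viperin, makes a chain-terminating nucleotide with CMPK2, and was at 5.18 ± 1.17 CPM (SD, n = 3) in anestrus, 7.67 ± 1.08 in estrus and 6.82 ± 2.23 in pregnancy. CMPK2, a mitochondrial nucleotide kinase, was at 2.36 ± 0.152, 3.43 ± 0.645 and 3.04 ± 0.576 CPM. IFI35, an interferon-induced leucine zipper protein, was at 8.02 ± 0.863, 10.6 ± 1.37 and 9.10 ± 0.390 CPM. BST2, or tetherin, which holds budding virions at the cell surface, was at 3.33 ± 1.31, 5.5 ± 1.69 and 4.54 ± 2.39 CPM.

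IFI44, a cytoplasmic protein named for its induction by interferon, had 3.91, 4.62 and 4.27 CPM in the anestrus libraries, 4.85, 8.03 and 6.07 CPM in the estrus libraries and 4.24, 2.84 and 3.58 CPM in the pregnancy libraries. Estrus was the highest stage without overlap, and pregnancy over estrus was -0.82 ± 0.36 (unadjusted p 0.0434, adjusted p 0.661). The pregnancy values of IFI44 rest on 40, 14 and 6 counts. IFI44L, its neighbour and paralog, had the same order with 1.49 ± 0.318, 2.20 ± 0.286 and 1.14 ± 0.613 CPM (SD, n = 3). XAF1, which promotes apoptosis by opposing the inhibitor XIAP, had 1.72, 1.5 and 2.74 CPM in the anestrus libraries, 6.42, 4.94 and 2.19 CPM in the estrus libraries and 2.76, 1.63 and 2.98 CPM in the pregnancy libraries. Estrus over anestrus was 1.19 ± 0.50 (unadjusted p 0.0373, adjusted p 0.704), with estrus replicate 3 inside the anestrus range.

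IFI6, a small membrane protein that in humans counters apoptosis, had 61.3, 44.5 and 46.3 CPM in the anestrus libraries, 47.9, 113 and 45 CPM in the estrus libraries and 54.3, 48.6 and 59.6 CPM in the pregnancy libraries. Estrus replicate 2 alone was high, and estrus over anestrus changed from 0.44 ± 0.33 to -0.13 without it. The second identifier with this symbol, which the tables describe as interferon alpha-inducible protein 27, was again highest in estrus replicate 2, at 86.0 CPM, but also high in anestrus replicate 2, at 63.7 CPM. Its other libraries ranged from 12.3 to 42.8 CPM, and pregnancy over estrus was -1.49 ± 0.63 (unadjusted p 0.0384, adjusted p 0.656). How reads were shared between the paralogs is not known here.

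The PARP group, PARP9 with its partner ubiquitin ligase DTX3L and the ADP-ribosyl transferase PARP14, showed no stage that stood apart. Their log2 fold changes lay between -0.31 and 0.14 in the 3 comparisons. PARP14 stood at 27.5 ± 2.25 CPM (SD, n = 3) in anestrus, 30.4 ± 7.87 in estrus and 28.2 ± 0.696 in pregnancy.

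The 2 secreted products did not have their lowest level in pregnancy. LGALS3BP had 213, 309 and 212 CPM in the anestrus libraries, 284, 435 and 204 CPM in the estrus libraries and 325, 387 and 212 CPM in the pregnancy libraries. The stages overlapped throughout, and pregnancy over estrus was 0.00 with a 95% interval from -0.71 to 0.71. CXCL10 had 26.0, 8.30 and 21.0 CPM in the anestrus libraries, 19.9, 21.4 and 39.1 CPM in the estrus libraries and 36.3, 25.8 and 31.6 CPM in the pregnancy libraries. Pregnancy over anestrus was 0.77 ± 0.41 (unadjusted p 0.0883, adjusted p 0.718), and 0.40 without anestrus replicate 2, its lowest library. Because LGALS3BP holds so large a share, the summed level of the 36 genes says little of the rest. On the TMM scale, the sum without it was 677, 844 and 688 CPM in anestrus, 654, 926 and 901 CPM in estrus, and 642, 584 and 594 CPM in pregnancy. On that scale every pregnancy library was below the 6 others. This separation depends on the scaling, whose factors were 1.039, 0.991 and 1.144 in pregnancy and 0.981 in anestrus replicate 1.

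The genes varied together in part. Over 630 gene pairs, Pearson's r of log2 CPM across the 9 libraries had a median of 0.21, against 0.00 over all pairs of tested genes, and 69.5% of the pairs were above 0. With each gene's stage mean removed the median was 0.13, and without anestrus replicate 2 and pregnancy replicate 3 it was 0.30. These points share library and depth. The gene that tracked the mean of the other members most closely was IFI44 with an r of 0.95, followed by OAS1 with 0.91, HERC6 with 0.81, MX1 and IRF9 with 0.80 each and EIF2AK2 with 0.79. USP18, DHX58, CXCL10, MX2 and IFIT2 were below 0, from -0.21 to -0.07. The closest pairs were MX1 with EIF2AK2 at 0.95, and ISG15 with IFIT1 and OAS1 with HERC6 at 0.92 each.

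Several of the genes are neighbours in the genome. In the order of protein-coding genes of the RefSeq yak annotation (assembly Bosgru_T2T1.0), where 34 of the 36 were found, 13 pairs had at most 4 other genes between them. They lay in 6 clusters: the IFIT genes, PARP14 with DTX3L and PARP9, MX1 with MX2, CMPK2 with RSAD2, IFI44L with IFI44, and HERC6 with HERC5. The median r of these pairs was 0.50, and 11 of 13 were above 0. The pair of PARP9 and DTX3L, which lie side by side, had an r of 0.74, and IFI44L and IFI44 had 0.70. MX1 and MX2 had only 0.25, and IFIT2 and IFIT1 had -0.38.

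The deposited annotation ties most of the genes to viral defence. Of the 32 that carry a Gene Ontology process, 21 were under defense response to virus, a term given to 136 of the 16489 annotated genes. Of the 22 with a KEGG pathway, 13 were under influenza A (188 of 9549 genes) and 7 under RIG-I-like receptor signalling (78 of 9549 genes). The list was drawn up by this function, so these counts describe it and test nothing.

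Footprints on the interferons themselves were scarce. The tables held 31 identifiers whose symbol names an interferon, and 20 of them had 0 counts in all 9 libraries, which over the 95.1 M counts of all libraries allows up to 0.0315 CPM each, for counting error only. All 31 together had 111 counts, with 42 in anestrus, 56 in estrus and 13 in pregnancy, or 0.745, 2.41 and 0.838 CPM of each stage's counts. IFNT3, an interferon tau gene, held 50 of them. Its counts were 0, 0 and 5 in anestrus, 27, 12 and 0 in estrus, and 0, 4 and 2 in pregnancy, so most lay in estrus replicates 1 and 2. Interferon tau genes are near-identical copies, so these counts cannot be assigned firmly to 1 of them.

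Of the 16 genes of interferon receptors and signalling, 15 were tested and 0 were called in any comparison. At an unadjusted p under 0.05, 4 of the 15 were lower in estrus than in anestrus (4.13% of all genes), 2 were higher in pregnancy than in estrus (4.23%), and 4 were lower in pregnancy than in anestrus (3.62%). Several of the values against anestrus depended on anestrus replicate 2. SOCS3, the feedback inhibitor of cytokine receptors, had 6.09, 65.1 and 14.8 CPM in the anestrus libraries, 2.19, 2.23 and 5.40 CPM in the estrus libraries and 5.73, 5.08 and 3.58 CPM in the pregnancy libraries. Estrus over anestrus was -3.16 ± 0.78, and -1.68 ± 0.52 without anestrus replicate 2. STAT3, the factor that drives SOCS3, was at 225, 1050 and 280 CPM in anestrus against 176 to 309 CPM in the 6 other libraries. Its pregnancy over anestrus value was -1.27 ± 0.50 and became -0.25 ± 0.25 without that library. The type I receptor chain IFNAR1 was at 33.0, 88.1 and 28.3 CPM in anestrus and at 15.5 to 29.8 CPM in the 6 others, and estrus over anestrus changed from -1.11 ± 0.41 to -0.41 ± 0.26. IFNAR2, the other chain, gave -0.87 ± 0.35 for pregnancy over anestrus, and -0.50 ± 0.32 without that library. Without it, the counts at that p against anestrus were 2 in estrus and 0 in pregnancy. The first count was also 2 without estrus replicate 2 and 7 without estrus replicate 3, and the second was 2 without pregnancy replicate 2 and 1 without pregnancy replicate 3. Between pregnancy and estrus, 4 were higher without estrus replicate 3, and 2 were higher and 2 lower without pregnancy replicate 1.

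IFNGR2, a chain of the interferon-gamma receptor, and TYK2 had a different order, lowest in estrus. IFNGR2 had 44.2, 35.1 and 29.7 CPM in the anestrus libraries, 24.0, 18.3 and 22.8 CPM in the estrus libraries and 33.1, 37.8 and 46.5 CPM in the pregnancy libraries. Every estrus library was below all 6 others, with -0.75 ± 0.22 against anestrus (unadjusted p 0.00709, adjusted p 0.704) and 0.84 ± 0.23 for pregnancy over estrus (unadjusted p 0.00387, adjusted p 0.656). TYK2 was at 25.0, 31.3 and 30.4 CPM, then 22.5, 15.0 and 22.3 CPM, then 31.8, 34.1 and 40.5 CPM, with 0.83 ± 0.23 for pregnancy over estrus. Thus the 8 genes with an unadjusted p under 0.05 among the members were lower, and these 2 receptor-side genes higher, in pregnancy than in estrus. JAK1 had log2 fold changes of -0.28, 0.13 and -0.15 in estrus over anestrus, pregnancy over estrus and pregnancy over anestrus.

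In the lists of sensing and of interferon-gamma genes, 0 genes were called. Of 16 tested genes of nucleic acid sensing, UNC93B1, which carries Toll-like receptors to endosomes, was higher in pregnancy than in estrus by 0.42 ± 0.19 at an unadjusted p of 0.048. TLR4, the lipopolysaccharide receptor, had -1.19 ± 0.51 for pregnancy over anestrus. No other gene of that list had an unadjusted p under 0.05, and each of these 2 missed it in most fits that left out 1 library. Its genes with most counts were ADAR and MYD88, with log2 fold changes of -0.12 and -0.40 for estrus over anestrus. Of 18 tested interferon-gamma and MHC class I genes, 0 had an unadjusted p under 0.05 in any comparison, and 0 to 2 did when 1 library was left out. B2M, the light chain of MHC class I, had 0.26 for estrus over anestrus and -0.21 for pregnancy over estrus, and PSME1, a proteasome activator subunit, had 0.41 and -0.54.

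Of 21 other interferon-induced genes outside the 36, 14 were positive and 7 negative in estrus over anestrus, with a median log2 fold change of 0.12. In pregnancy over estrus 17 were negative and 4 positive, with a median of -0.23. In pregnancy over anestrus 13 were negative and 8 positive, with a median of -0.03 that was 0.04 without anestrus replicate 2. TDRD7, an interferon-induced inhibitor of autophagy, had 14.9, 11.9 and 17.5 CPM in the anestrus libraries, 21.4, 28.1 and 26.5 CPM in the estrus libraries and 15.0, 16.3 and 14.9 CPM in the pregnancy libraries. Every estrus library was above all 6 others, with 0.78 ± 0.22 against anestrus (unadjusted p 0.0049, adjusted p 0.704) and -0.72 ± 0.23 for pregnancy over estrus. EPSTI1 and IFI16, a DNA sensor, were also higher in estrus than in anestrus, by 0.86 ± 0.34 and 1.23 ± 0.51, both at an unadjusted p under 0.05. The list thus held 3 such genes of 21 (2.91% of all genes), and 1 when anestrus replicate 1, anestrus replicate 2 or estrus replicate 2 was left out. ISG20, an exonuclease, had the opposite sign with -1.91 ± 0.69, and -2.70 ± 0.79 for pregnancy over anestrus, at levels of 0.0 to 4.58 CPM. The genes of this list with most counts, IFITM1 and IFITM3, which block viral entry, had values of -0.17 ± 0.38 and -0.51 ± 0.48 for estrus over anestrus.

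Markers of immune and ovarian cells were read beside these results. In pregnancy over estrus, where 29 of the 36 genes were negative, 7 of 10 macrophage markers and 8 of 10 T and NK cell markers were positive. Their median log2 fold changes were 0.16 and 0.39. At an unadjusted p under 0.05 from edgeR, 1 macrophage marker was lower in pregnancy (3.19% of all genes) and 0 were higher. For T and NK cell markers, 0 passed that p in either direction. The macrophage sum was 502 to 1070 CPM in anestrus, 594 to 1140 in estrus and 755 to 1330 in pregnancy. The T and NK cell sum was 61.5 to 91.2, 52.3 to 81.1 and 51.0 to 148 CPM. B and plasma cell markers summed to 102 to 208 CPM in anestrus, 16.5 to 120 in estrus and 79.6 to 219 in pregnancy, with PAX5 at 0 in 8 libraries. At that p, 2 of 6 tested were lower in estrus than in anestrus (4.13% of all genes). Higher in pregnancy than in estrus were 2 of 6 (4.23%). Neutrophil markers summed to 36.4 CPM in anestrus replicate 2 and to 2.76 to 10 CPM in the 8 others. Both of the 2 tested were lower in pregnancy than in anestrus at that p (3.62% of all genes). Endothelial markers were negative in 7 of 9 in pregnancy over estrus and in 8 of 9 in pregnancy over anestrus, and stroma markers in 5 of 7 and 6 of 7. Granulosa markers were positive in 7 of 8 in estrus over anestrus, with a median log2 fold change of 0.90. Smooth muscle markers were negative in 6 of 6 in pregnancy over each other stage. At that p, 2 of 6 were lower in pregnancy than in estrus (3.19% of all genes) and 2 than in anestrus (3.62%). In all 6, every pregnancy library lay below every anestrus library (6.91% of all genes). Theca and luteal markers were positive in 7 of 8 in pregnancy over each other stage, with a sum of 1230 to 5800 CPM in pregnancy. At that p, 2 of 8 were higher in pregnancy than in estrus (4.23% of all genes) and 5 than in anestrus (3.2%). Each other marker list had at most 1 gene at that p in a pairwise comparison. No marker was called at an adjusted p under 0.05. The part of these cell types in the levels of the interferon-stimulated genes was not tested.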

How the data were processed

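Ribosome footprints of 9 ovary libraries, 3 per stage, were compared. Per the labels' protocols, DNA probes and RNase H removed ribosomal RNA, and sequencing was on the Illumina HiSeq X10 platform. The deposited estimated counts are, per the submitters' processing notes, from Bowtie2 and RSEM, with versions and build not given in the sources used here; identifiers are those of cattle genes. All deposited counts were whole (0 were not). The authors' FPKM divide counts by gene length and depth. The authors' deposited table gives log2 ratios of stage mean FPKM with a p-value and an FDR, whose test is not stated.

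Counts were fitted with edgeR 4.0.16 in R 4.3.3 (filterByExpr, TMM, quasi-likelihood, all 9 libraries, stage as the only term), which left 13936 of 21652 genes and a biological coefficient of variation of 34.5%. Alternatives were DESeq2 1.42.0, limma-voom (limma 3.58.1), other scalings and filters, the 6 compared libraries alone, a replicate block, library size as a covariate, summed identifiers, libraries left out and the authors' table. The fit was run on simulated counts with changes larger than most of those seen here, and its outcome is not used above. That run cannot show whether changes of the reported size would be found. Log2 CPM used a prior count of 2.

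The genes, roles, pathway lists and markers were chosen with earlier results of these data known. Every matched gene is named; values per library are given for genes with an unadjusted p under 0.05 in a pairwise comparison and for the 5 with the highest mean FPKM. In pathway lists, genes with an unadjusted p under 0.05 and the 2 with most counts are named. The search of all interferon identifiers, the neighbour order and the second identifiers of OAS1 and IFI6 were added after values were seen. The labels call the libraries of a stage biological replicates but do not tie them to single animals. A p-value here thus reflects only the spread among these libraries, part of which may be technical. Intervals and floors cover counting error only where they come from counts. A further deposited table was not used here. A result that needs a withheld item is not reported here.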

Additional observations from a re-analysis of the deposited data

How the results depend on the processing

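Of 22 alternatives, 9 leave out 1 library each. edgeR-based fits and limma-voom called 0 of the 36 genes in every comparison. DESeq2 called 1 in pregnancy versus estrus and 1 over the 3 stages, and the authors' deposited table called 1 in pregnancy versus estrus; the gene is OAS1, at -2.15 and -2.02. In pregnancy versus estrus, the number of genes at an unadjusted p under 0.05 was 5 with log2 library size as a covariate and 4 to 9 with 1 library left out. In estrus versus anestrus it was 5 with limma-voom, 5 with log2 library size and 1 to 3 with 1 library left out. In pregnancy versus anestrus it was 1 with library size alone, 5 with the replicate block, 1 without anestrus replicate 2 and pregnancy replicate 3, and 0 to 4 with 1 library left out. Over the 3 stages it was 3 without those 2 libraries and 3 to 7 with 1 left out. The median log2 fold change kept its sign under every alternative in each comparison: with 1 library left out it ran from 0.13 to 0.33 in estrus versus anestrus, from -0.40 to -0.23 in pregnancy versus estrus, and from -0.28 to -0.11 in pregnancy versus anestrus, where it was -0.03 with log2 library size and -0.01 in the authors' table. With library size alone the median of all genes was 0.13 in pregnancy versus anestrus and 0.10 in pregnancy versus estrus, against 0.00 and 0.01 with TMM.

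Values of single genes that changed sign were all uncalled. With log2 library size as a covariate, pregnancy over anestrus was 0.03 for HERC6, 0.06 for IFI44, 0.30 for IRF1 and 0.02 for MX1, and estrus over anestrus was 0.03 for IFIT5 and 0.43 for IRF1. With summed identifiers, IFI6 was -0.19 in pregnancy over anestrus. Without anestrus replicate 2 and pregnancy replicate 3, pregnancy over anestrus was -0.07 for IFI6, and estrus over anestrus was 0.03 for IFIT5 and 0.13 for IRF1. LGALS3BP in pregnancy over estrus was -0.01 with DESeq2 and with relative log expression factors, and 0.00 with every gene that had a count. With 1 library left out, estrus over anestrus ran from -0.31 to 0.03 for IFIT5, -0.23 to 0.13 for IRF1, -0.13 to 0.67 for IFI6 and -0.01 to 0.55 for LGALS3BP. Pregnancy over estrus ran from -0.58 to 0.21 for IFI6 and -0.22 to 0.33 for LGALS3BP, and pregnancy over anestrus from 0.00 to 0.25 for IFI6. The cause of these changes was not tested.

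Samples with the same replicate number correlated at -0.03 to 0.26 in their deviations from the stage means, with a median of 0.13. Samples with different numbers correlated at -0.27 to 0.14, with a median of -0.06. Deviations from a stage mean cancel out within the stage, so the different-number values are tied to the same-number ones and are no separate reference. Of the 9 libraries, 3 were closest to their own number in both other stages. The labels name no animal shared across stages, and the numbers were not taken as pairs in the main fit. With the replicate block, the counts at an unadjusted p under 0.05 were 2, 6 and 5 in estrus versus anestrus, pregnancy versus estrus and pregnancy versus anestrus, and the medians 0.20, -0.30 and -0.19; 0 genes were called. The fit of 6 libraries and the authors' table give no value over the 3 stages. Depth limits OAS2, IFI44L and BST2 most, with 3 counts or fewer in a library. Other genes also rested on few counts in pregnancy replicate 3, with 4 for CMPK2, 5 for IRF7 and XAF1, 6 for IFI44 and 7 for IFIT3.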
